A study of Mus musculus with 2 samples.

Results

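Genes of the cell cycle, cell division and DNA replication were examined in lung of mice lacking Bclaf1, a nuclear protein first found as a partner of Bcl2-related proteins. The members were the cDNA clones on the authors' lists (1 named up-regulated, 1 named down-regulated) that carry a gene symbol and a gene ontology term for cell cycle, cell division, mitosis or DNA replication. Genes that also carry a term for mitochondrion, translation, messenger RNA processing or splicing were left out, as were Bclaf1, Thrap3, Tgfbr1, Id2 and Id3. This gave 128 clones of 109 genes, out of 2327 named genes in the tables, and 127 clones of 108 genes had a value on both arrays. The authors had picked every listed clone on these same arrays, so the sides of the members below are a description of that choice and no count of sides is a test.

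Wild-type and Bclaf1 knockout lung were compared on 2 arrays of spotted mouse cDNA, each hybridised with wild-type RNA labelled with Cy5 and knockout RNA labelled with Cy3. Neither the kind of Bclaf1 allele nor the strain is given in the sources used here, and the tissue is called embryonic day 19 in the sample labels and postnatal day 1 in the series text. The RNA samples are numbered but are not said to come from separate animals, so the spread between arrays may be technical. Dye and genotype cannot be told apart, because both arrays carried the same orientation.

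Each value is a log2 ratio of the channels, and the value table does not say which channel was the numerator. With Cy5 as numerator a positive ratio is a higher level in wild type, and by the names of the authors' lists it is a higher level in the knockout. Ratios are therefore given as lying on the positive side, that of the authors' up-regulated list, or on the negative side, and the other reading turns every sign together. Bclaf1 itself was on the authors' up-regulated list and lay at 0.40 on array 1 and 0.41 on array 2. With Cy5 as numerator this is a lower level in the knockout, and by the names of the lists it is a higher one. The sex-linked transcripts also differed between the channels, with Xist at 2.69 and 2.15 and the Y-linked Ddx3y at -1.12 and -0.61, so sex and genotype cannot be told apart either. Of the 7 alveolar type I markers looked up, only Emp2 was among the named clones, at -0.33 and -0.52, and none of the alveolar type II, airway, endothelial, red cell or leukocyte markers was. In whole tissue, fewer cells of a type and less RNA per cell cannot be told apart.

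Cell division runs through a fixed order of steps. Origins of replication are licensed in G1 by the origin recognition complex and the MCM helicase, cyclin-dependent kinases start DNA synthesis, checkpoint kinases halt it when DNA is damaged, and condensin, cohesin and the spindle then part the chromosomes. E2F factors switch on many of the genes needed for DNA synthesis, and the anaphase-promoting complex ends mitosis by marking cyclins for destruction. In late fetal and newborn lung, proliferation continues in mesenchyme, endothelium and epithelium while the air spaces form.

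The cell cycle genes lay on both sides in near equal number, and most ratios were small. On both arrays 50 of the 108 measured genes were positive and 56 were negative, and the ratios of Lats2 and Ptp4a1 differed in sign between the arrays. Positive genes made up 46.3% of the members and 47.3% of the other 2211 named genes measured in the tables. The median of the gene means was -0.15 for the members and -0.11 for the other named genes. Over all 22532 clones with both values, 35.7% were positive and 33.9% negative on both arrays, and the array medians were 0.0071 and 0.0042. Of the member clones 60 were positive and 67 negative on both arrays, which the authors' choice had fixed.

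Positive members had a median ratio of 0.31 on array 1 and 0.34 on array 2. Negative members had medians of -0.30 and -0.39, and 44 of the 56 lay further from 0 on array 2, against 25 of the 50 positive members. The other named genes showed the same order, with 796 of 1114 negative genes further from 0 on array 2. Array 2 was wider as a whole, with an SD across clones of 0.430 against 0.299.

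**Figure D1:**
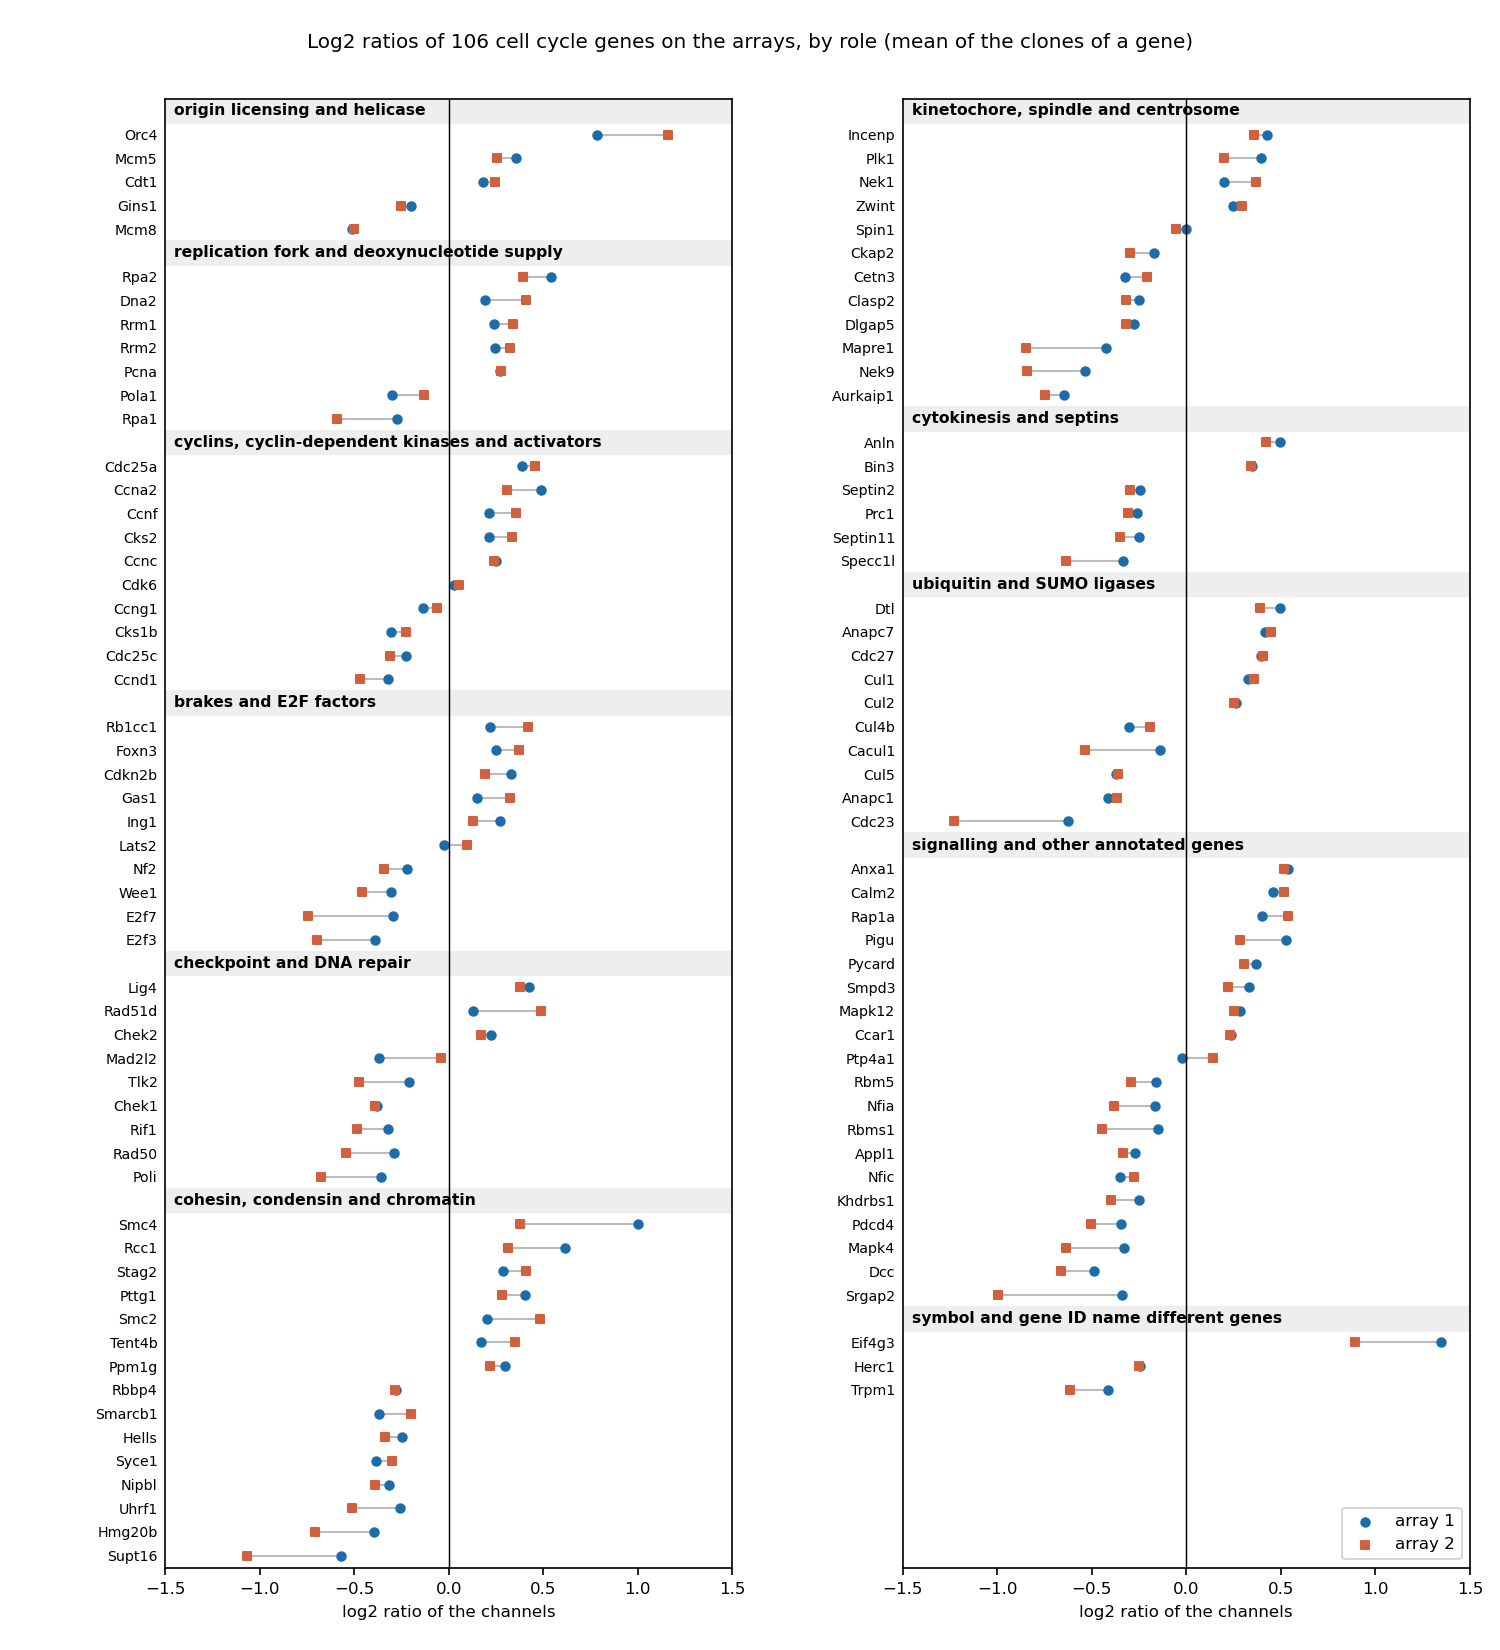
Log2 ratio of the channels (x axis) for the measured cell cycle genes, grouped by role and without those not reported by name, with array 1 as circles and array 2 as squares, averaged over the member clones of a gene. Every role holds genes on both sides of 0, and Orc4 at 0.78 and 1.16 and Cdc23 at -0.62 and -1.23 lie furthest out among the genes of settled name.

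No member passed the test. Limma's moderated test of the mean ratio against 0, with Benjamini-Hochberg adjustment at 0.05, called 0 of the 127 member clones and 0.0% of all clones, and the lowest adjusted p among members was 0.349. Without adjustment 71 member clones had a p under 0.05, beside 13.9% of all clones, but the authors' selection had favoured such clones. Past 1.5-fold on both arrays were 3 member clones on the positive side, where 0.506% of all clones lay, and 2 on the negative side, where 0.311% lay. These 5 clones belonged to Orc4, Smc4, Eif4g3, Cdc23 and Aurkaip1. Just short of that fold were Supt16 and Nek9 on the negative side, at -0.57 and -1.06 and at -0.54 and -0.84, and Anxa1 and Calm2 on the positive side, at 0.54 and 0.52 and at 0.46 and 0.52.

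**Figure D2:**
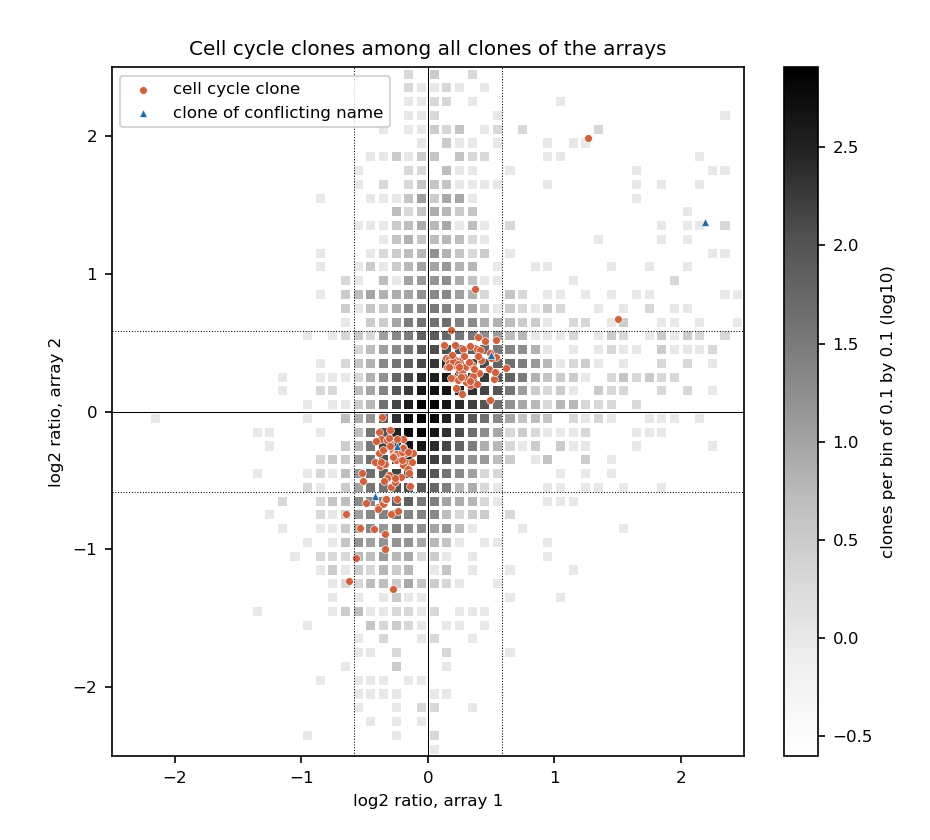
Log2 ratio on array 1 (x axis) against array 2 (y axis) for the 127 cell cycle clones (circles, or triangles where symbol and gene ID disagree) over all clones as grey bins; dotted lines mark 1.5-fold. The cell cycle clones form a group on either side of 0 with few past 1.5-fold on both arrays.

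E2F factors bind upstream of many replication genes, so the promoters of the members were searched for the E2F motif, spelled TTTGGCGC or TTTCCCGC, on both strands. RefSeq promoter windows on GRCm38.p6, from 250 bases before to 50 after the start, were found for 76 of the 105 genes of settled name. The motif was present in 10 of these, or 13.2%, against 3.42% of 1519 other genes of the tables, 2.09% of 17492 protein-coding genes and 1.63% of all 27025 windows. It was as common on the positive side, in 5 of 36 genes, as on the negative side, in 5 of 38. A match shows only that the letters are present. Positive genes with the motif were Cdc25a, Chek2, Dtl, Mcm5 and Cdt1, and negative ones were E2f3, E2f7, Hells, Pola1 and Mcm8.

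The 8 promoters below carry the motif before the start and show it on genes of either side, 4 positive and then 4 negative. Each run is 120 bases long, reads 5′ to 3′ on the gene's strand and has the motif in capitals. They lie at chr9:109875456-109875575 on the plus strand (Cdc25a), chr5:110839775-110839894 on the plus strand (Chek2), chr1:191575545-191575664 on the minus strand (Dtl) and chr8:75109304-75109423 on the plus strand (Mcm5). The negative genes lie at chr13:29986064-29986183 on the minus strand (E2f3), chr10:110745189-110745308 on the plus strand (E2f7), chr19:38930870-38930989 on the plus strand (Hells) and chrX:93632230-93632349 on the minus strand (Pola1).
Cdc25a: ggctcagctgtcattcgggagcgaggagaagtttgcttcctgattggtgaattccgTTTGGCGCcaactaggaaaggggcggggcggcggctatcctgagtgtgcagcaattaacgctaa
Chek2: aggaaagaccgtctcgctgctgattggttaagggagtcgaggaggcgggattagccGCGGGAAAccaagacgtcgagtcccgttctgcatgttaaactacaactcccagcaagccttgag
Dtl: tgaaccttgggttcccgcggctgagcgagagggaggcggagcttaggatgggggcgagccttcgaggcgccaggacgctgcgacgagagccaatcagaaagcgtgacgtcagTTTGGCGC
Mcm5: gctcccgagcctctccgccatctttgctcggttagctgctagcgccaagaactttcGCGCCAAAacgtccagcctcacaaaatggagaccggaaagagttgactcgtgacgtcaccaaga
E2f3: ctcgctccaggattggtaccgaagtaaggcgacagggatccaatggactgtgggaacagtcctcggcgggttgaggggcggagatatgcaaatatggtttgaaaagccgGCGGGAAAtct
E2f7: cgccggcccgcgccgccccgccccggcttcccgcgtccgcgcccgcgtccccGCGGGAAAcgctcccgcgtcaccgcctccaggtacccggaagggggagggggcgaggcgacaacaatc
Hells: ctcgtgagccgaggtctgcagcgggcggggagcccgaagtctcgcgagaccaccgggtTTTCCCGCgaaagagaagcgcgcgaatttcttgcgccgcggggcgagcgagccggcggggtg
Pola1: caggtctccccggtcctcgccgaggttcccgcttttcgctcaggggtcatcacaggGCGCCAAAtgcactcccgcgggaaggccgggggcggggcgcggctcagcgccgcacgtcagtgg

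Other motifs of cell cycle promoters were searched in the same windows. The CCAAT box, spelled CCAAT, was in 48.7% of the member promoters, 37.5% of those of the other genes of the tables, 39.0% of those of protein-coding genes and 37.9% of all windows. The cell cycle homology region, spelled TTTGAA, was in 19.7% of the member promoters, 10.9% of those of the other genes of the tables, 16.5% of those of protein-coding genes and 18.1% of all windows. By side, the CCAAT box was in 44.4% of positive and 52.6% of negative members, and TTTGAA in 25.0% and 15.8%.

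Among the genes that license origins and form the replicative helicase, 3 of 5 were positive. The clones of these 3 have low clone numbers, in a stretch where every member clone was positive, as described below. Orc4, a subunit of the origin recognition complex, lay at 1.27 and 1.99 for 1 clone and at 0.30 and 0.32 for the other, so its clones shared a side and differed widely in size. Mcm5, a subunit of the MCM helicase, lay at 0.36 and 0.26. Cdt1, which loads that helicase onto origins, lay at 0.18 and 0.24. These genes stood opposite to Mcm8, a relative of the helicase with a part in recombination, at -0.51 and -0.50. Gins1, of the GINS complex that activates the helicase, was also negative, at -0.20 and -0.25. The arrays differed most for Orc4.

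Genes of the replication fork and of deoxynucleotide supply were 5 positive and 2 negative, with a median of 0.28. The clones of the 5 positive genes lie in that same stretch of low clone numbers. Relative to the median of clones with neighbouring numbers, the median of the group was 0.15. Pcna, the sliding clamp of the DNA polymerases, lay at 0.27 and 0.28. The subunits of ribonucleotide reductase, which makes deoxynucleotides, lay close together, Rrm1 at 0.24 and 0.34 and Rrm2 at 0.24 and 0.32. Their clones come from the same block of clone numbers. Relative to the median of that block they lay at 0.13 and 0.20 and at 0.13 and 0.18. Dna2, a nuclease and helicase that trims Okazaki fragments, lay at 0.19 and 0.41. The subunits of replication protein A, which coats unwound DNA, fell on opposite sides. Rpa2 lay at 0.54 and 0.39, while the clones of Rpa1 lay at -0.21 and -0.30 and at -0.34 and -0.89. Pola1, the catalytic subunit of the polymerase that starts new strands, was negative as well, at -0.30 and -0.13.

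Cyclins, cyclin-dependent kinases and their activators were 6 positive and 4 negative. Ccna2, the cyclin of S phase and mitosis, had a mean of 0.40 ± 0.13 (SD, n = 2 arrays here and below), and Ccnf, an F-box protein related to cyclins, lay at 0.21 and 0.36. Ccnc, a cyclin of the Mediator kinase module, lay at 0.25 and 0.24. Ccnd1, the growth factor-responsive cyclin of G1, was negative in both of its clones, at -0.41 and -0.22 and at -0.24 and -0.72. The phosphatases that activate cyclin-dependent kinases were divided, with Cdc25a, which acts at the start of S phase, at 0.39 and 0.45 and Cdc25c, which acts at mitosis, at -0.22 and -0.31. The small kinase-binding subunits were divided too. Cks2 lay at 0.21 and 0.34, and Cks1b, which helps to mark the inhibitor p27 for destruction, at -0.30 and -0.23. Disagreement within a gene was seen for Cdk6, a partner of the D cyclins, whose clones lay at 0.22 and 0.48 and at -0.16 and -0.37. It was also seen for Ccng1, a target of p53, at 0.25 and 0.32 and at -0.52 and -0.44, so neither gene has a settled side.

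**Figure D3:**
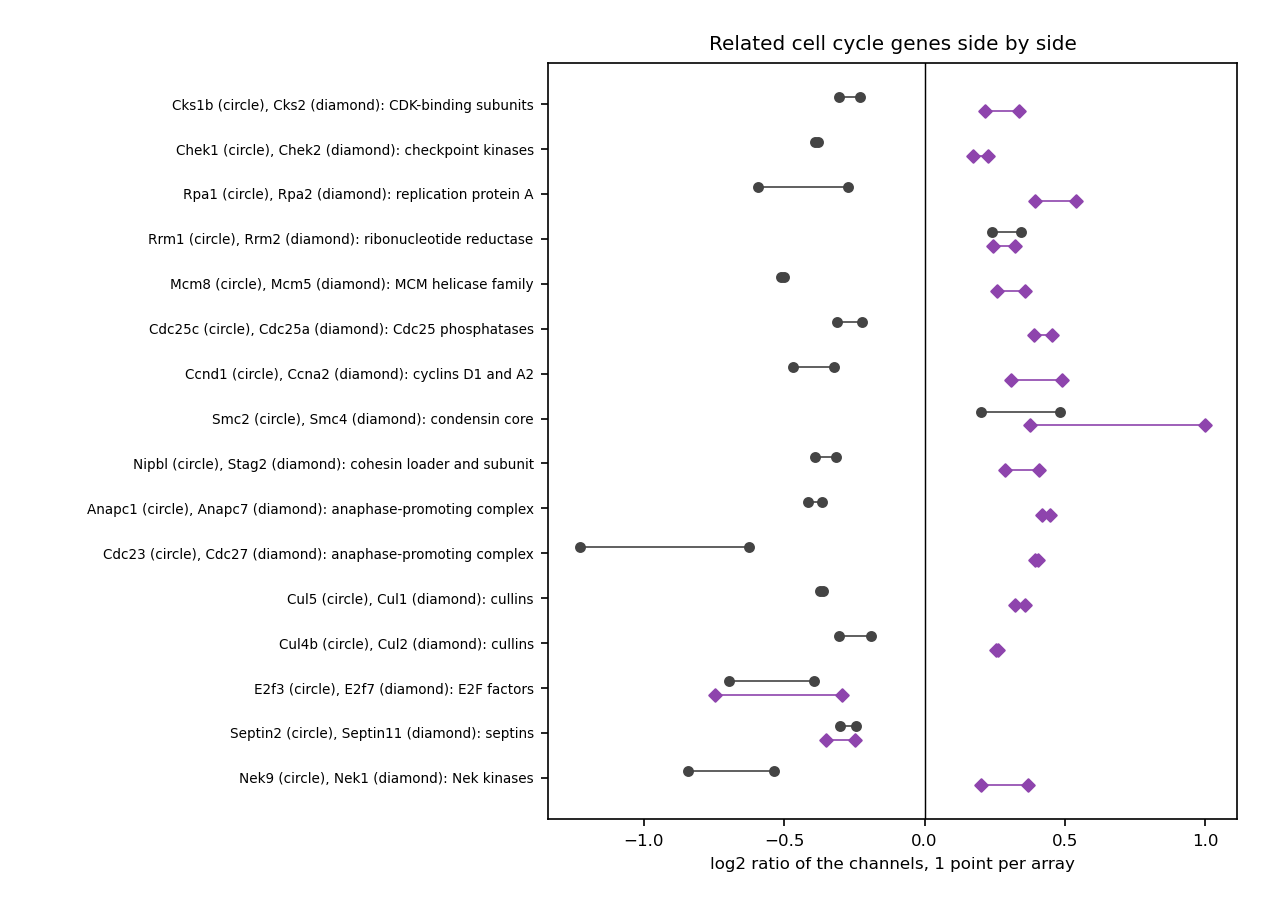
Log2 ratios (x axis, 1 point per array joined by a line) of related cell cycle genes, set side by side by family or complex. Rrm1 with Rrm2, Smc2 with Smc4, E2f3 with E2f7 and Septin2 with Septin11 share a side. In the other 12 pairs the genes lie on opposite sides on both arrays. The pairs were chosen after their values were seen, and the clones of Rrm1 and Rrm2 come from the same block of clone numbers. Those of Smc2 come from blocks 6 and 7, where every member clone was positive. Those of E2f3 and E2f7 come from blocks 53 and 51, where every member clone was negative. The part of position in the sides of the pairs was not tested.

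Brakes on the cycle and E2F factors were 5 positive and 4 negative of 10 measured. The E2F factors were both negative, with E2f3, an activator, at -0.39 and -0.69 and E2f7, a repressor of E2F targets, at -0.29 and -0.75. Wee1, the kinase that holds Cdk1 inactive until mitosis, lay at -0.31 and -0.46. Nf2, the tumour suppressor merlin, lay at -0.22 and -0.34, and relative to the median of clones with neighbouring numbers at -0.020 and -0.25. On the other side stood Cdkn2b, the p15 inhibitor of Cdk4 and Cdk6, at 0.33 and 0.19. Gas1, a membrane protein induced on growth arrest, lay at 0.15 and 0.33. Foxn3, a forkhead factor first described as a checkpoint suppressor, lay at 0.25 and 0.37. Rb1cc1, an autophagy protein also known as FIP200, was positive in both of its clones, at 0.28 and 0.46 and at 0.17 and 0.39. Ing1, a chromatin reader that works with p53, lay at 0.27 and 0.13. Lats2, a kinase of the Hippo pathway, had 1 negative clone, at -0.20 on each array, and 1 positive clone, at 0.15 and 0.39. A further member had a value on array 1 only and is not counted.

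Checkpoint and DNA repair genes were 3 positive and 6 negative, with a median of -0.34. The checkpoint kinases lay apart, with Chek1, which acts downstream of Atr, at -0.38 and -0.39 and Chek2, which acts downstream of Atm, at 0.23 and 0.17. Rad50, of the complex that senses DNA breaks, had a mean of -0.42 ± 0.18, and Rif1, which steers break repair and replication timing, had -0.40 ± 0.11. Poli, a translesion polymerase, lay at -0.36 and -0.67. Tlk2, a kinase of chromatin assembly, lay at -0.21 and -0.47. Mad2l2, the Rev7 subunit of translesion polymerase zeta, lay at -0.37 on array 1 and close to 0 on array 2, at -0.041. Positive were Lig4, the ligase of end joining, at 0.42 and 0.38, and Rad51d, a gene of homologous recombination, at 0.13 and 0.49.

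Genes of condensin, cohesin and chromatin were 7 positive and 8 negative. The core subunits of condensin were positive in all 4 of their clones. The clones of Smc2, Stag2, Rcc1 and Ppm1g lie in the stretch of low clone numbers where every member clone was positive. Relative to their block medians, the clones of Smc2 lay at 0.10 and 0.23 and at 0.00076 and 0.47. Smc2 lay at 0.22 and 0.38 and at 0.18 and 0.59, and Smc4 lay at 1.51 and 0.67 for 1 clone and at 0.49 and 0.081 for the other. Of the cohesin genes, Stag2, a subunit of the ring, lay at 0.29 and 0.41, and Pttg1, securin, the inhibitor of the protease that opens the ring, lay at 0.40 and 0.28. Nipbl, which loads cohesin onto chromosomes, was negative in both clones, at -0.24 and -0.63 and at -0.39 and -0.15. Rcc1, the exchange factor that charges Ran on chromatin, lay at 0.62 and 0.32. The phosphatase Ppm1g and the poly(A) polymerase Tent4b had means of 0.26 each.

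Chromatin factors made up most of the negative members of that group. Supt16, a subunit of the FACT histone chaperone, had the lowest ratio, with -0.57 and -1.06. Hmg20b, of a histone demethylase complex, lay at -0.39 and -0.71. Uhrf1, which brings the maintenance methyltransferase to newly copied DNA, lay at -0.26 and -0.51, and Hells, a remodelling ATPase needed for DNA methylation, at -0.25 and -0.34. These genes, which share a part in DNA methylation, rest on 1 clone each, and neither passed the test. The histone-binding Rbbp4 and the remodelling subunit Smarcb1 had means of -0.28 each, and Syce1, of the synaptonemal complex of meiosis, had -0.34.

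Kinetochore, spindle and centrosome genes were 4 positive and 8 negative. Positive were Incenp, the scaffold of the chromosomal passenger complex, in both clones, at 0.33 and 0.48 and at 0.52 and 0.24, and Plk1, the polo-like kinase of mitosis, at 0.39 and 0.20. Zwint, a kinetochore protein, lay at 0.25 and 0.29. The clones of Incenp, Plk1 and Zwint lie in the stretch of low clone numbers where every member clone was positive. Relative to block medians, Incenp lay at 0.21 and 0.20, Plk1 at 0.21 and 0.079 and Zwint at 0.063 and 0.18. The kinases of the Nek family were divided, with Nek1, a kinase of cilia and DNA repair, at 0.20 and 0.37 and Nek9, of spindle assembly, at -0.54 and -0.84. Aurkaip1, which binds Aurora A, was the negative member with the largest smaller ratio, at -0.64 and -0.74. Mapre1, the protein EB1 at microtubule tips, lay at -0.43 and -0.85. Clasp2, another protein of microtubule tips, was negative in both clones, at -0.30 and -0.25 and at -0.20 and -0.39. Dlgap5, Cetn3 and Ckap2, all of the spindle or its poles, had means from -0.30 to -0.23. The clones of Spin1 lay on opposite sides, at 0.20 and 0.25 and at -0.21 and -0.35.

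Cytokinesis and septin genes were 2 positive and 4 negative. Anln, anillin, which organises the contractile ring, lay at 0.49 and 0.42, opposite to Prc1, which bundles the microtubules of the central spindle, at -0.26 and -0.31. The clone of Anln lies in block 4, with only positive member clones, and that of Prc1 in block 39, with only negative ones. The septins, filament-forming GTPases of the cleavage furrow, were alike, with Septin2 at -0.24 and -0.30 and Septin11 at -0.25 and -0.35. Specc1l, a protein that links actin and microtubules, lay at -0.34 and -0.64. Bin3, a BAR-domain protein, lay at 0.35 and 0.34.

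Ubiquitin and SUMO ligase genes were 5 positive and 6 negative and held some of the lowest ratios. The 4 subunits of the anaphase-promoting complex that were members fell on opposite sides. Cdc27 lay at 0.40 on each array and Anapc7 at 0.42 and 0.45, while Anapc1 lay at -0.41 and -0.37 and Cdc23 at -0.62 and -1.23. The arrays were close for Cdc27, Anapc7 and Anapc1 and far apart for Cdc23. Cullins, the backbones of modular ubiquitin ligases, were divided likewise. Cul1, of the SCF ligase, lay at 0.32 and 0.36 and Cul2 at 0.26 and 0.25, while Cul4b lay at -0.30 and -0.19 and Cul5 at -0.37 and -0.36. Dtl, which lets a Cul4 ligase destroy Cdt1 during replication, lay at 0.50 and 0.39, on the side of Cdt1 and opposite to Cul4b. Cacul1, which has a cullin domain and binds Cdk2, lay at -0.14 and -0.54.

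The remaining 20 genes carry a cell cycle term beside another main role, and 9 were positive and 10 negative. Anxa1, a calcium-dependent phospholipid-binding protein, had the largest positive mean among them as deposited, 0.53 ± 0.013, but relative to the median of clones with neighbouring numbers its mean was 0.28, below Rap1a at 0.49 and Pycard at 0.36. Calm2, which encodes the calcium sensor calmodulin, lay at 0.46 and 0.52. The small GTPase Rap1a lay at 0.40 and 0.54. On the negative side, Srgap2, a GTPase-activating protein of the Slit-Robo pathway, lay at -0.34 and -0.99, and Dcc, the netrin receptor, at -0.49 and -0.66. The nuclear factor I genes, transcription factors of lung and brain development, were negative in all 4 of their clones. Nfia lay between -0.26 and -0.11 on array 1 and between -0.48 and -0.30 on array 2, and Nfic at -0.35 and -0.28. The kinases Mapk12 and Mapk4 fell on opposite sides, at 0.28 and 0.25 and at -0.33 and -0.64. Ptp4a1, a phosphatase of growing cells, had 2 negative clones and 1 positive clone, the latter at 0.37 and 0.89. The other positive genes were Pigu, Pycard, Smpd3 and Ccar1, with means of 0.23 to 0.41. Pdcd4, Khdrbs1, Appl1, Rbms1 and Rbm5 were negative, with means of -0.42 to -0.23.

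For 4 clones of 3 members the symbol and the gene ID name different genes, so their identity is not settled. The clones under Eif4g3, a translation initiation factor, carry the gene ID of Hcfc1, a coregulator of E2F, and lay at 2.19 and 1.38 and at 0.50 and 0.41. The clone under Herc1, a large ubiquitin ligase, carries the gene ID of another gene and lay at -0.25 on each array. The clone under Trpm1 carries the gene ID of Med1, a Mediator subunit, and lay at -0.41 and -0.61. Without these clones 49 genes were positive and 54 negative, with a median of -0.098 in place of -0.15.

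Of the 17 genes with more than 1 member clone, 12 had all clones on the same side and 5 had clones on opposite sides. The concordant genes among the roles above were Orc4, Rpa1, Ccnd1, Rb1cc1, Smc2, Smc4, Nipbl, Incenp, Clasp2, Nfia and Khdrbs1, together with Eif4g3. Opposed were Cdk6, Ccng1, Lats2, Spin1 and Ptp4a1. The gene means over opposed clones lay within 0.10 of 0 and describe none of the clones. Clones of a gene share a target, so they are not replicates of the comparison.

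The position of a clone in the collection moved with its side. Clone numbers were taken in 59 equal blocks of consecutive clones, and for all 93 member clones of blocks 1 to 40 with a readable position the position began with the number of the block. Block medians over all clones ran from -0.20 to 0.34 on array 1 and from -0.33 to 0.26 on array 2. In the 24 blocks with a positive median on both arrays, 45 of 66 member clones were positive, or 68.2%, close to the 69.2% of all listed clones there. In the 20 blocks with a negative median on both arrays, 3 of 35 were positive, or 8.57%, against 12.5% of all listed clones. Block 6 alone held 11 member clones, all positive, and block 38 held 6, all negative. Those of block 38 were the clones of Nf2, Mad2l2, Rbbp4, Syce1, Cetn3 and Nfic. Pcna, Rrm1, Rrm2, Mcm5 and Cdt1 were in block 6, Dna2 in block 5, Rpa2 in block 2 and Orc4 in blocks 1 and 7. The positive genes of origin licensing and of the replication fork thus all came from blocks with only positive member clones. The negative genes of both roles came from other blocks. Mcm8 in block 42, Gins1 in block 27 and Rpa1 in blocks 15 and 41 came from blocks with only negative member clones. Pola1 was in block 58, with 1 positive and 1 negative member clone. Blocks 37 to 53 held no positive member clone.

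With block medians subtracted, most genes kept their side, and their sizes changed in both directions. The clones had been selected on these same arrays, so a kept side is no test of the effect of position. The mean of Pigu went from 0.41 to 0.16 and that of Nek9 from -0.69 to -0.81. Genes positive on both arrays numbered 47 and negative ones 54, and 5 genes left their side: Ccnf, Ing1 and Smpd3 were no longer positive on both arrays, and Mad2l2 and Spin1 no longer negative. The median of the replication fork genes fell from 0.28 to 0.15, with the counts still 5 positive and 2 negative, and that of checkpoint and repair genes moved from -0.34 to -0.20. Pcna lay at 0.16 and 0.13 after this step, Rpa2 at 0.20 and 0.24, and Calm2 at 0.12 and 0.36. The mean of Mcm5 went from 0.31 to 0.18 and that of Anln from 0.46 to 0.29. Chek1, Cdc23, Mcm8 and Orc4 kept their sides, at -0.38 and -0.50, -0.56 and -1.11, -0.48 and -0.69, and 0.64 and 1.02.

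**Figure D4:**
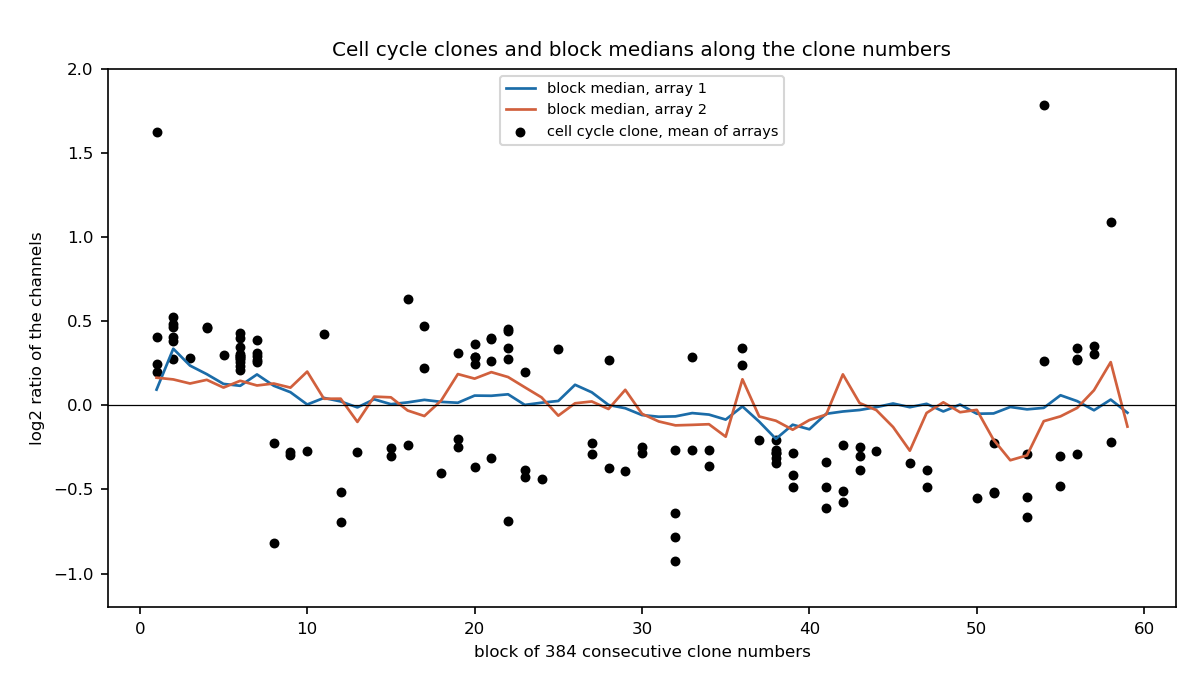
Mean log2 ratio of each of the 127 cell cycle clones (points) against its block of consecutive clone numbers (x axis), with the median of all clones of a block on array 1 and array 2 (lines). Blocks 1 to 7, where both medians are above 0, hold only positive member clones, and blocks 32 to 41 hold mostly negative ones.

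By gene ontology term the sides were again close to even. Cell division genes were 22 positive and 20 negative of 43, genes of mitosis 15 and 13 of 29, and DNA replication genes 12 and 11 of 23. Their medians were 0.042, 0.26 and 0.21. The broad cell cycle term had 39 positive and 45 negative of 86, with a median of -0.15.

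A narrower definition gave more positive than negative genes. Of 338 genes on 10 lists of core cell cycle and replication factors, 76 were named in the tables and measured, of which 53 were members. On both arrays 43 of the 76 were positive and 32 negative, with a median of 0.23, and 0 of their clones passed limma's test. Of all 2319 named genes measured in the tables, 47.26% were positive and 50.45% negative. These are values as deposited, without block medians subtracted. Pcna, Rrm1, Rrm2, Mcm5, Cdt1, Stag2, Anapc7 and Cul2, all positive on these lists, come from block 6, where every member clone was positive. Smc2, Orc4, Rpa2, Anln, Incenp, Plk1, Zwint and Ccnf, also positive, come from blocks 1 to 7, which held only positive member clones. The difference in balance was not tested. The list with the most uneven sides was that of cohesin, condensin and chromosome structure, with 7 positive and 2 negative of 9. Its positive genes include Smc2 and Stag2, from the blocks just named. Origin licensing had 3 and 3, cyclins and their kinases 7 and 5, and the anaphase-promoting complex with SCF ligases 4 and 4. The 23 genes that were not members were 14 positive and 8 negative, and lack the chosen terms in the tables. All of these genes had also been selected by the authors.

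The authors' deposited tables gave the member clones fold changes close to 1. The 61 up-regulated clones had fold changes of 1.16 to 3.62, with a median of 1.24 in the authors' deposited table, and the 67 down-regulated clones had 0.48 to 0.87, with a median of 0.79. In the authors' deposited table their p-values ran from 0.01 to 0.05, with adjustment not stated.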

How the data were processed

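Dual-channel arrays of spotted mouse cDNA were made from lung RNA of wild-type and Bclaf1 knockout mice and, per the labels, scanned on an Agilent scanner. The deposited log2 values are 1 ratio per clone and array; background correction and normalization are not described in the labels. The authors' deposited tables give a fold change (a linear ratio) and a p-value per clone, whose test and selection are not described either. The base of the logarithm was read from the values.

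Of 22656 clones, 22532 had both values, and 3 control features were left out. The mean of a clone's ratios was compared with 0 by limma 3.58.1 under R 4.3.3 (lmFit, eBayes, two-sided, Benjamini-Hochberg over all clones, threshold 0.05), after a test on simulated data. The value of a gene is the mean of its member clones. Symbols were updated through gene IDs in a RefSeq table (GRCm38.p6, names only), which also restored 2 septins stored as dates. Promoter sequences are RefSeq's; 1 window per gene was searched.

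The members and lists were chosen with earlier results of these data known, and the roles, motifs and related pairs after the values were seen. Values are given for the 10 members per side with the largest smaller ratio, the 3 largest of each role, genes whose clones disagree, genes on 1 array, genes just past and short of 1.5-fold and, beyond this rule, others of each role. With 2 arrays, their number limits the precision of every value. Spot intensities were not used here. Some members count in the totals and are not reported by name here.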

Additional observations from a re-analysis of the deposited data

How the results depend on the processing

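No further paired analysis was possible, because each ratio already compares wild-type and knockout RNA on 1 array and all arrays form 1 group. Limma calls stayed at 0 for all clones and for the member clones under centring, equal median absolute deviations, quantile normalization, subtraction of block medians, robust eBayes and the ordinary one-sample test. The ordinary test left 1861 of all clones and 25 member clones at an unadjusted p under 0.05, against 3138 and 71 with limma. The counts of positive and negative genes were within 1.5 times of 50 and 56 under every alternative that kept all blocks. Restricted to blocks with a positive median, an alternative chosen after seeing the data, 20 genes were negative and the median was 0.27; restricted to blocks with a negative median, 3 genes were positive, 31 negative and the median -0.30. The median was -0.079 with block medians subtracted and ran from -0.14 to -0.057 on single arrays.

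Counts past 1.5-fold on the negative side depended on array scale. Equal median absolute deviations gave 128 clones and 4 member clones, and quantile normalization 146 and 4, against 70 and 2 as deposited; the cause was not tested. On single arrays 728 to 1172 clones were past 1.5-fold on the positive and 154 to 1049 on the negative side, with 5 member clones positive on either array and 2 to 18 negative. Past a log2 ratio of 0.32 there were 837 positive and 644 negative clones, 18 and 21 of them members, and at 2-fold 36 and 2, with 0 negative members. Genes whose clones disagree changed sign: Lats2 to -0.010 and Spin1 to 0.0075 with block medians subtracted, and Lats2 and Ptp4a1 to -0.025 each on array 1 alone, against 0.097 and 0.14 on array 2 alone. No other named gene changed sign.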
